A study of Mesocricetus auratus with 7 samples.

Results

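The genes described here were those whose read level in golden hamster oocytes at the germinal vesicle (GV) stage was higher in every Mov10l1 KO library than in any wild-type (WT) or heterozygous (HET) library, by more than 1.4 times. Levels are given as CPM, that is, the count of a gene divided by the total of its library and multiplied by 1000000. A gene had to reach a mean of at least 2 CPM over the 7 libraries, and the lowest KO value had to exceed 1.4 times the highest WT or HET value. Of 22285 rows, 8414 reached the mean and 42 of these (0.499%) also passed the ratio. From the 42, rows graded from WT through HET to KO (7 rows), rows in which every HET and KO library was over 2 times the highest WT library (4 rows) and rows listed by identifier (6 rows) were left out, 13 in all because some met more than a single criterion. The remaining 29 genes are the members. Because they were chosen by their CPM in the same KO, WT and HET libraries, the difference between KO and the other libraries is given below as a description. Calls of these genes for that difference in tests over the whole table are printed beside the share called over all genes and are not used as support.

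MOV10L1 is an RNA helicase of germ cells that takes part in making piRNAs, and piRNAs guide PIWI proteins to complementary RNA. Best known as a defence against retrotransposons, piRNAs can also act on transcripts of genes that match them or that carry transposon sequence. A fully grown GV oocyte transcribes little and stores maternal mRNA, so that its transcriptome mostly reflects what was made and kept during growth.

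The 7 libraries were made from small pools of fully grown GV oocytes, 2 from WT, 2 from Mov10l1 HET and 3 from Mov10l1 KO females, with a different animal code for each library. HET animals carried the mutant allele, from which a helicase-domain exon had been deleted with CRISPR–Cas9, in a single copy, and KO animals carried it in both copies. The deletion is present in all cells of the animal. The allele came from a single founder female whose heterozygous descendants were outcrossed to WT stock before intercrossing. The females were 36 to 45 weeks of age except for that of WT 2, at 17 weeks, and the part of age in the results was not tested beyond the alternatives given with them. In pools of oocytes, more transcript per oocyte and more oocytes carrying it cannot be told apart.

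Library totals lay between 24242442 and 33956304 estimated counts. Mov10l1 itself lay lower in all 3 KO libraries (3.26 to 6.40 CPM) than in the 4 others (13.8 to 36.2 CPM). Of the oocyte markers, 3 of 14 could be matched to an identifier (Nobox, Kit and Ddx4), and their summed level was 685 to 736 CPM in KO and 765 to 969 CPM in WT and HET. Ddx4 made up most of this sum and was lower in all KO libraries, whereas Nobox and Kit overlapped between the groups. Of the granulosa and cumulus cell markers, 4 of 16 were matched (Inha, Inhba, Inhbb and Fst), with summed levels of 1.88 to 2.19 CPM in WT, 6.77 to 18.1 CPM in HET and 2.98 to 16.9 CPM in KO. No KO library exceeded the higher HET library. Inhba, an inhibin and activin subunit, was at or under 0.0413 CPM in WT, at 0.397 and 13.8 CPM in HET and at 3.43, 12.6 and 2.26 CPM in KO, and DESeq2 called it as raised over WT in both KO (adjusted p 0.000683) and HET (adjusted p 0.00235). The other 3 were not called against WT, and their levels did not share a direction. Inhbb was at 0 and 0.382 CPM in WT, 6.31 and 4.26 CPM in HET and 0 to 3.06 CPM in KO, Inha was at 0 and 1.46 CPM in WT, 0.0662 and 0 CPM in HET and 0.270 to 0.883 CPM in KO, and Fst was highest in WT 1 (2.15 CPM) and at or under 0.324 CPM elsewhere. The stromal marker Col1a1 (1 of 8 matched) was at or under 0.132 CPM. Of the list for blood or immune cells, 1 of 8 was matched (Csf1r), at 1470 to 2049 CPM in every library, with overlapping groups. This was above each matched oocyte marker in every library, and which cells it came from was not tested. No endothelial marker of 4 was matched. The part of the oocyte and granulosa markers in the levels of the 29 genes was not tested.

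The 29 genes were scarce. Their median mean level was 3.64 CPM (range 2.00 to 25.4), compared with 20.3 CPM for all 8414 rows that reached the minimum, and 26 of the 29 were under 10 CPM. The rule used these levels and left out rows by identifier, so that scarcity describes the genes chosen and not all genes raised in KO. Levels are not divided by transcript length, so that they rank reads and not molecules. The median ratio of the KO mean to the mean of WT and HET was 4.05 over the 29 genes and 0.933 over all 8414 rows. The ratio of means was over 2 in 28 genes and over 5 in 13. The summed level of the 29 genes was 70.1 to 87.7 CPM in the WT and HET libraries and 245 to 276 CPM in the KO libraries. Across all 8414 rows, every KO library lay above every WT and HET library in 199 (2.37%) and below in 422 (5.02%), so that raised genes were the minority among rows without overlap. This balance depended on scaling, and with TMM-scaled CPM the corresponding numbers were 276 and 271. All 29 genes met the rule under both other scalings that were run.

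**Figure D1:**
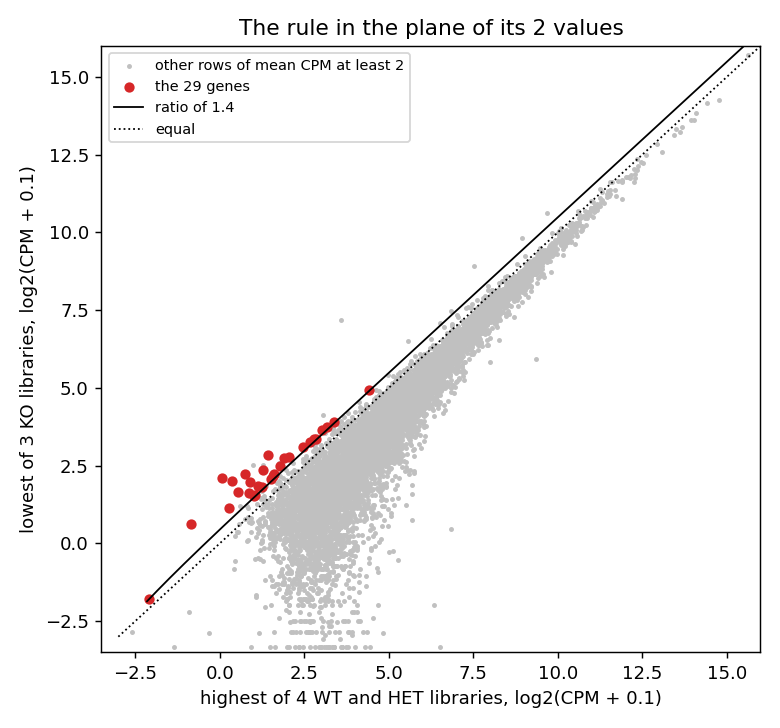
Each point is a row with a mean of at least 2 CPM, with the highest of the 4 WT and HET libraries on the horizontal axis and the lowest of the 3 KO libraries on the vertical axis, both as log2(CPM + 0.1). The 29 genes (red) lie above the line of a 1.4-fold ratio and mostly at low levels, and rows above the line that are grey were left out by the rule.

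Only 3 of the 29 identifiers could be tied to a gene name or description in the gene lists of the study, and the other 26 are given by Ensembl identifier. Ptpdc1 (ENSMAUG00000001193) encodes a member of the protein tyrosine phosphatase family. It had 6.85 and 7.76 CPM in WT, 5.50 and 10.3 CPM in HET, and 15.8, 23.1 and 14.8 CPM in KO. HET 3 was the highest of the controls and KO 3 the lowest of the mutants, with a ratio of 1.43 between them. WT averaged 7.30 ± 0.647 CPM (SD, n = 2), HET 7.91 ± 3.41 CPM (SD, n = 2) and KO 17.9 ± 4.58 CPM (SD, n = 3).

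Syne3 (ENSMAUG00000018569) encodes nesprin-3, a protein of the outer nuclear membrane that takes part in linking the nucleus to the cytoskeleton. Its levels were 0.866 and 1.11 CPM in WT, 0.596 and 0.251 CPM in HET, and 2.12, 6.48 and 3.12 CPM in KO. The KO libraries were uneven, and KO 2 held 55.3% of their sum. Both HET libraries lay below both WT libraries, so that the order of the genotypes was HET, WT and KO.

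ENSMAUG00000014085 is described as lanosterol 14-alpha demethylase, a cytochrome P450 of cholesterol synthesis whose direct product is known as a meiosis-activating sterol. This row was carried by a single library. It had 2, 1, 4 and 0 counts in WT 1, WT 2, HET 2 and HET 3, and 5, 708 and 43 counts in KO 1, KO 2 and KO 3. KO 2 held 92.3% of the summed KO level. KO 1, with 5 counts, passed the ratio over HET 2, with 4 counts, although the counting intervals of these values overlapped (0.0625 to 0.449 CPM for KO 1 and 0.0361 to 0.339 CPM for HET 2, exact 95% Poisson limits). The row fell out of the rule when KO 2 was omitted, because its mean was then under 2 CPM.

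In 8 genes the lowest KO library exceeded 2 times the highest control, and in 3 of these it exceeded 3 times. ENSMAUG00000012459 had the largest ratio (4.44). Its levels were 0.371 and 0.949 CPM in WT, 0.564 and 0.806 CPM in HET, and 7.97, 4.21 and 6.22 CPM in KO. The 4 control libraries lay close together, from 9 to 29.8 counts, and the KO libraries held 143 to 207 counts.

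ENSMAUG00000019629 followed with a ratio of 3.34. It had 0.0825 and 1.18 CPM in WT, 0.927 and 0.0716 CPM in HET, and 6.74, 6.80 and 3.93 CPM in KO. In contrast to the preceding gene, its controls were split, with 2 counts each in WT 1 and HET 3 and 37 and 28 counts in WT 2 and HET 2. ENSMAUG00000001693 had 0.454 and 0.159 CPM in WT, 0.265 and 0 CPM in HET, and 1.43, 5.51 and 6.21 CPM in KO. The separation from the controls was 3.14 times, but KO 1 held 10.8% of the summed KO level.

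The KO libraries of ENSMAUG00000011757 and ENSMAUG00000015680 were much alike. ENSMAUG00000011757 had 0.949 and 1.59 CPM in WT, 0.364 and 1.04 CPM in HET, and 4.62, 5.74 and 4.66 CPM in KO. ENSMAUG00000015680 had 2.02 and 0.636 CPM in WT, 0.397 and 2.61 CPM in HET, and 7.01, 7.39 and 7.17 CPM in KO. Its coefficient of variation (SD divided by the mean) was 2.67% over the KO libraries, the smallest of the 29 genes, compared with 75.7% over the 4 controls.

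The other genes with a ratio over 2 were ENSMAUG00000021001, ENSMAUG00000001661 and ENSMAUG00000009747. ENSMAUG00000021001 was at 0 to 1.37 CPM in the controls and at 6.70, 6.13 and 3.05 CPM in KO. ENSMAUG00000001661 was detected in every control, at 1.36 to 2.35 CPM, and lay at 5.06 to 7.40 CPM in KO. ENSMAUG00000009747 is given below with the genes in which both HET libraries lay below both WT libraries.

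**Figure D2:**
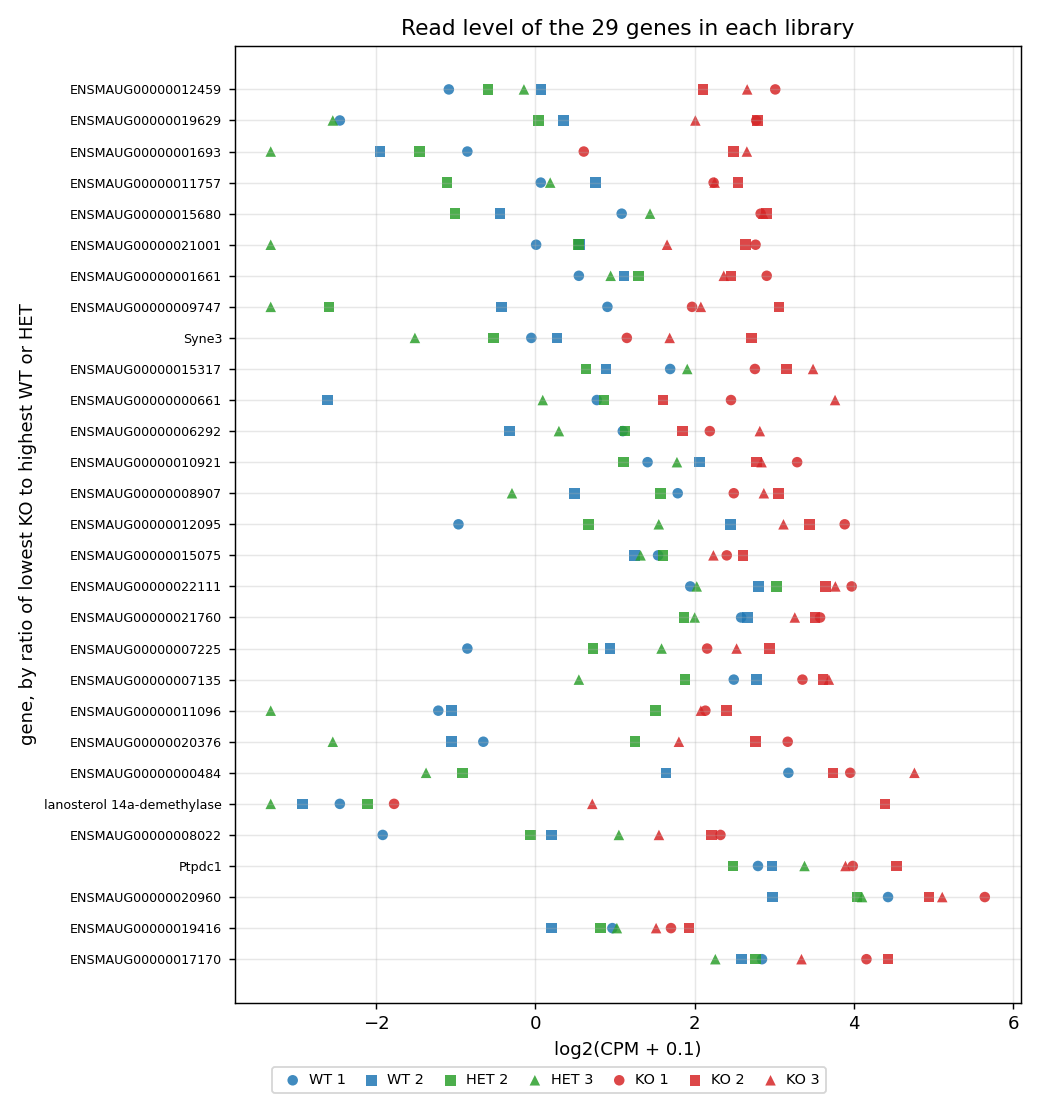
Level of each of the 29 genes in each library, as log2(CPM + 0.1), for WT (blue), HET (green) and KO (red), with symbols by replicate number and genes ordered by the ratio of the lowest KO to the highest WT or HET value. The red symbols lie to the right of all others in every gene, as the rule requires, and the gap narrows from 4.44 times at the top to 1.42 times at the bottom.

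ENSMAUG00000020960 had the highest mean (25.4 CPM), with 21.4 and 7.79 CPM in WT, 16.4 and 17.1 CPM in HET, and 49.9, 30.7 and 34.4 CPM in KO. WT 1 and WT 2 differed more than WT and HET did on average, and the KO mean was 2.45 times that of the controls. Ptpdc1 (12.0 CPM) and ENSMAUG00000017170 (10.5 CPM) were the other genes with a mean of at least 10 CPM. ENSMAUG00000017170 had 7.09 and 5.92 CPM in WT, 6.69 and 4.69 CPM in HET, and 17.8, 21.5 and 10.0 CPM in KO. Its controls varied by 17.3% (coefficient of variation) and its KO libraries by 35.5%.

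ENSMAUG00000022111 and ENSMAUG00000015075 showed a tight KO group at different levels. ENSMAUG00000022111 had 3.75 and 6.87 CPM in WT, 8.08 and 3.98 CPM in HET, and 15.6, 12.4 and 13.5 CPM in KO. ENSMAUG00000015075 had 2.81 and 2.27 CPM in WT, 2.94 and 2.40 CPM in HET, and 5.19, 6.00 and 4.61 CPM in KO. Its controls varied least of all 29 genes, by 12.3%, and its KO mean was 2.02 times theirs. In 4 further genes (ENSMAUG00000015317, ENSMAUG00000006292, ENSMAUG00000010921 and ENSMAUG00000008907) the controls ranged from 0.700 to 4.07 CPM and the KO libraries from 3.50 to 11.1 CPM.

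In several genes a single control library set the ratio. ENSMAUG00000011096 had 0.330 and 0.382 CPM in WT and 0 CPM in HET 3, but 2.75 CPM in HET 2, while its KO libraries were even at 4.29, 5.18 and 4.13 CPM. ENSMAUG00000020376 showed the same high HET 2 value, with 0.536 and 0.382 CPM in WT, 2.28 and 0.0716 CPM in HET, and 8.90, 6.71 and 3.39 CPM in KO. In ENSMAUG00000012095 the high control was WT 2, with 0.412 and 5.38 CPM in WT, 1.49 and 2.83 CPM in HET, and 14.7, 10.8 and 8.57 CPM in KO. Over the 29 genes the highest control was WT 2 in 9, HET 2 in 8, WT 1 in 6 and HET 3 in 6, so that no control library set the ratio throughout.

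In ENSMAUG00000007225, ENSMAUG00000008022 and ENSMAUG00000000661 the controls were spread, with the lowest at or under 0.454 CPM. ENSMAUG00000007225 had 0.454 and 1.81 CPM in WT, 1.56 and 2.90 CPM in HET, and 4.36, 7.57 and 5.67 CPM in KO. ENSMAUG00000008022 had 0.165 and 1.05 CPM in WT, 0.861 and 1.97 CPM in HET, and 4.91, 4.54 and 2.83 CPM in KO. ENSMAUG00000000661 had 1.61 and 0.0636 CPM in WT, 1.72 and 0.967 CPM in HET, and 5.39, 2.94 and 13.5 CPM in KO, where KO 3 held 61.8% of the sum.

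The 29 genes differed in how evenly the KO libraries shared the increase. The highest KO library was within 1.5 times the lowest in 11 genes, between 1.5 and 2 times in 9 and over 2 times in 9. The median of this ratio was 1.71, against 1.63 over all 8414 rows. The median coefficient of variation over KO was 27.0% in the 29 genes and 25.3% over all rows, and over the 4 controls it was 54.7% and 32.9%. The rule bounds the lowest KO and the highest control value, and these spreads were not tested. KO 2 was the highest KO library in 13 genes (44.8%, against 31.9% of all rows), KO 1 in 10 and KO 3 in 6. The ages of the KO animals were 45, 40 and 36 weeks for KO 1, KO 2 and KO 3.

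**Figure D3:**
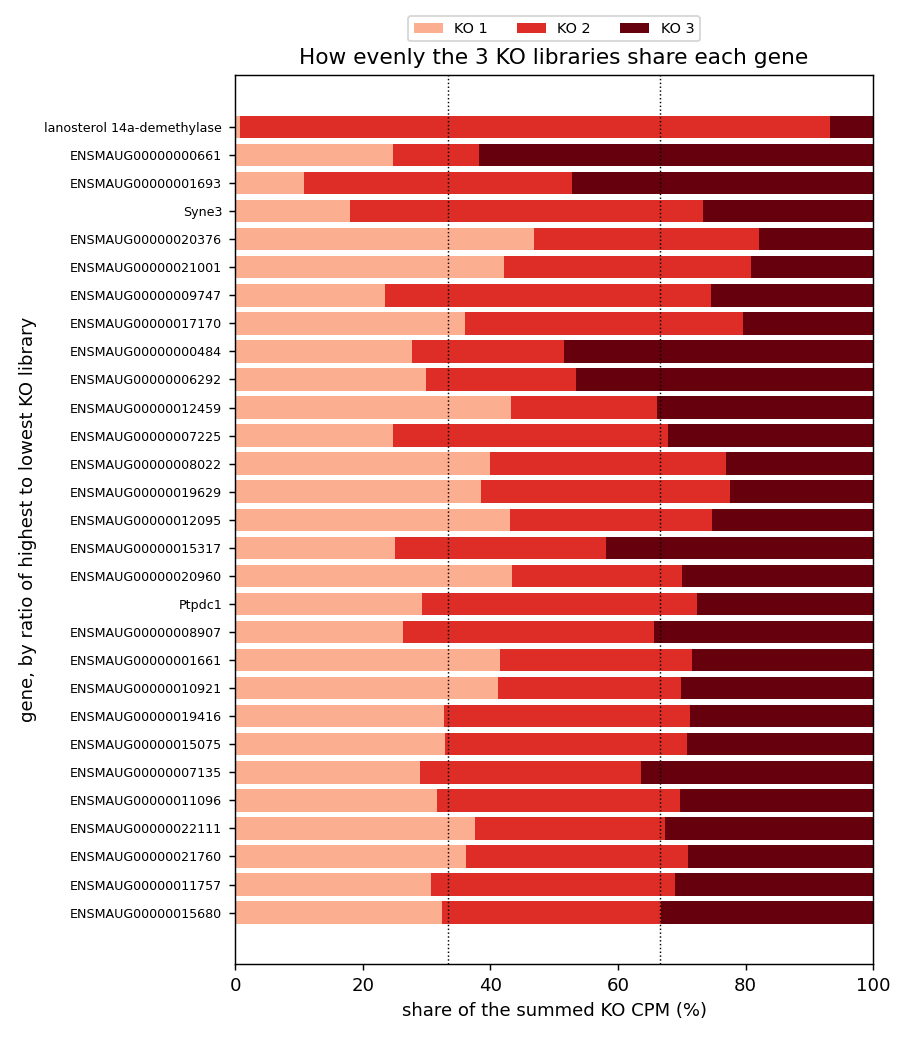
Share of the summed KO level (% of CPM) found in KO 1, KO 2 and KO 3 for each of the 29 genes, ordered by the ratio of the highest to the lowest KO library, with dotted lines at equal shares. The row of lanosterol 14-alpha demethylase lies almost wholly in KO 2 (92.3%), whereas the libraries share ENSMAUG00000015680 nearly equally (32.5%, 34.3% and 33.2%).

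The exact 95% Poisson intervals of the lowest KO count and the highest control count, as CPM, were apart in 23 of the 29 genes and overlapped in 6, and 27 genes had at least 50 counts in every KO library. Since the rule chose genes by the ratio of these 2 values, the number of intervals apart describes the depth and is no support for the gaps. Such intervals cover counting error only, since reads copied during amplification are not independent molecules. The genes with overlapping intervals were ENSMAUG00000007225, ENSMAUG00000011096, ENSMAUG00000020376, ENSMAUG00000008022, ENSMAUG00000019416 and the row of lanosterol 14-alpha demethylase.

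Genes on either side of the threshold were alike. The lowest ratios inside were 1.42 (ENSMAUG00000017170), 1.43 (ENSMAUG00000019416) and 1.43 (ENSMAUG00000020960). ENSMAUG00000019416 had 1.86 and 1.05 CPM in WT, 1.66 and 1.93 CPM in HET, and 3.16, 3.71 and 2.76 CPM in KO. The highest ratios outside were 1.39 (ENSMAUG00000000051), 1.38 (ENSMAUG00000015709) and 1.35 (ENSMAUG00000002430). ENSMAUG00000000051 had 10.8 and 6.52 CPM in WT, 10.6 and 5.79 CPM in HET, and 15.1, 17.9 and 21.2 CPM in KO.

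HET and WT were then compared, to ask whether the genes already differed between genotypes that keep an intact allele. The rule left out rows in which HET lay between WT and KO or far above WT, so that no gene with both HET libraries above both WT libraries could remain, against 12.9% of all 8414 rows. Since the rule used the values of both genotypes, their comparison within the 29 genes is a description too. The HET mean was above the WT mean in 16 of the 29 genes (55.2%) and in 48.3% of all 8414 rows. It was over 2-fold from the WT mean, in either direction, in 8 of the 29 genes and in 1333 of all 8414 rows, whose median level was higher. Both HET libraries lay below both WT libraries in 5 genes (17.2%), a share near that of all rows (16%). DESeq2, with Benjamini-Hochberg adjustment over all genes and a threshold of 0.01, called 0.443% of genes in HET against WT (0.31% as raised), and 1 of the 29 was called, with a lower level in HET. The edgeR quasi-likelihood test called none of the 29, and the unadjusted p was under 0.05 in 2 of the 29 and in 661 of all 11220 genes.

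The gene called was ENSMAUG00000000484. Its levels were 8.95 and 3.02 CPM in WT, 0.430 and 0.287 CPM in HET, and 15.4, 13.3 and 27.0 CPM in KO. The groups did not overlap, and HET was lowest, WT intermediate and KO highest. WT averaged 5.99 ± 4.19 CPM (SD, n = 2), HET 0.358 ± 0.102 CPM (SD, n = 2) and KO 18.6 ± 7.40 CPM (SD, n = 3). The log2 fold change of HET against WT was −4.03 (SE 0.746, DESeq2 adjusted p 0.000121). Without WT 1 it was −2.99 and the gene was not called (DESeq2 adjusted p 0.0331), and edgeR did not call it (adjusted p 0.843). With age as a covariate it was −4.46 (DESeq2 adjusted p 0.000248), and without WT 2, the younger animal, −4.63 (DESeq2 adjusted p 6.36e-06), with a single WT library assumed to vary like the other groups.

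ENSMAUG00000009747 showed the same order without passing the threshold. It had 1.77 and 0.644 CPM in WT, 0.0662 and 0 CPM in HET, and 3.81, 8.25 and 4.13 CPM in KO. HET 2 held 2 counts and HET 3 none, so that no fold against HET is given. The adjusted p of HET against WT was 0.0436 by DESeq2. The others with both HET libraries under both WT libraries were Syne3, given above, ENSMAUG00000021760 and ENSMAUG00000007135. ENSMAUG00000021760 had 5.90 and 6.24 CPM in WT, 3.54 and 3.90 CPM in HET, and 11.8, 11.3 and 9.47 CPM in KO. ENSMAUG00000007135 had 5.53 and 6.74 CPM in WT, 3.58 and 1.36 CPM in HET, and 10.1, 12.1 and 12.8 CPM in KO.

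**Figure D4:**
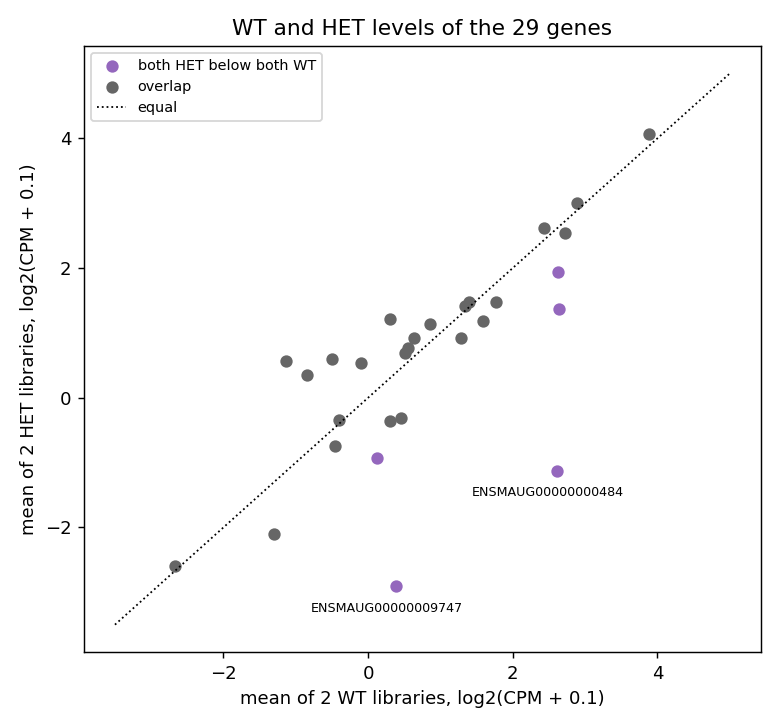
Mean of the 2 HET libraries against the mean of the 2 WT libraries for each of the 29 genes, as log2(CPM + 0.1), with a dotted line of equality and with purple points where both HET libraries lay below both WT libraries. The HET mean is over 2-fold from the WT mean in 8 genes, on both sides of the line. ENSMAUG00000000484 (5.99 CPM in WT, 0.358 CPM in HET) and ENSMAUG00000009747 (1.21 CPM in WT, 0.0331 CPM in HET) lie farthest below the line.

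All 5 zeros of the 29 genes in WT and HET were in HET 3 (ENSMAUG00000001693, ENSMAUG00000021001, ENSMAUG00000009747, ENSMAUG00000011096 and the row of lanosterol 14-alpha demethylase), whereas 0.499% of all 8414 rows, whose median level was higher, were at 0 in that library. The rule favours low controls and leaves out genes with HET above WT, so that this is a description of the genes chosen. HET 3 was the lowest control in 12 of the 29 genes (41.4%) and in 24.2% of all rows. It also had the fewest rows with at least 10 counts (9860, against 9911 to 10585 in the other libraries). Without HET 3 the rule gave 51 genes, of which 21 were among the 29. The other 8 still passed the mean and the ratio and were left out as rows graded from WT to KO or raised over WT in HET and KO, since a single HET library meets these patterns more easily.

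The authors divided reads with several alignments between the loci, and reads over several genes between the genes, which leaves fractional counts. At least 1 library held fractional counts in 14 of the 29 genes (48.3%), compared with 52.7% of all 8414 rows. ENSMAUG00000015075 had them in 6 libraries and ENSMAUG00000012459 in 5. Values of these 14 genes are less certain, since part of their reads may come from a similar sequence elsewhere or from an overlapping gene. Divided reads can also add up to whole counts, so that the other genes may share reads too.

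The calls of the whole-table tests are given for these genes as a description, since the same libraries chose them. In KO against WT and HET together, DESeq2 called 0.346% of all genes in either direction and 0.163% as raised, and called 2 of the 29 genes, ENSMAUG00000012459 and the row of lanosterol 14-alpha demethylase. In KO against WT it called 0.508% of all genes, 0.411% as raised, and the same 2 of the 29. The edgeR test called none of the 29 in either comparison, and called 0.038% and 0.00891% of all genes. Its unadjusted p was under 0.05 in 25 of the 28 genes it tested and in 539 of all 10523 in the first comparison, and in 18 of the 29 and 656 of all 11220 in the second. The genes were chosen by this difference. Without KO 1 or KO 3, ENSMAUG00000012459 was not called against WT and HET together (DESeq2 adjusted p 0.0343 and 0.0175), with a log2 fold change of 3.03 and 3.27, compared with 3.27 over all libraries. Without KO 2, the row of lanosterol 14-alpha demethylase had no adjusted p in either comparison.

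Of 27 pathway genes, 17 had a known row, and none was among the 29. Piwil3, which the rule also lists among the rows to leave out, had 102 and 80.0 CPM in WT, 88.2 and 106 CPM in HET, and 109, 129 and 140 CPM in KO, so that all KO libraries lay above the others without reaching the ratio of 1.4. In KO against WT and HET together, DESeq2 called 1 of the 17 as lower, Mov10l1, and none as raised. Piwil1, which encodes a PIWI protein, had 66.7 ± 8.29 CPM (SD, n = 2) in WT, 109 ± 53.2 CPM (SD, n = 2) in HET and 118 ± 4.99 CPM (SD, n = 3) in KO, with overlapping groups. Ddx4, a germ cell RNA helicase, had 599 ± 28.5 CPM (SD, n = 2) in WT, 608 ± 77.6 CPM (SD, n = 2) in HET and 489 ± 64.3 CPM (SD, n = 3) in KO and was not called. Of the genes for chromatin silencing, 4 of 20 had a known row, and of those for mRNA decay and translation 3 of 24. None of these was called or among the 29, and Morc1 of the former had no adjusted p. No gene of the lists for maternal effect and meiotic maturation had a known row.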

How the data were processed

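Reads were aligned by the authors to MesAur1.0 with STAR (version 2.7.3a) and counted over exons of Ensembl release 99 with featureCounts (version 2.0.0), without strand. A read that aligned to more than a single place, or covered more than a single gene, was split, so that the deposited values are estimated counts. Values for paralogues, overlapping and antisense genes are therefore uncertain. Molecular identifiers were not used. All 7 columns were matched by sample title. CPM were computed from column totals. The members, gene lists and tests were chosen with earlier results of these data known. Counts were rounded and tested over the whole table with DESeq2 (version 1.42.0, Wald test, two-sided, with its own size factors and filters, called at adjusted p under 0.01, as in the methods of the study) in R (version 4.3.3), with all 7 libraries in each model. The edgeR quasi-likelihood test (version 4.0.16, TMM) was an alternative, and others changed scaling, filters, covariates and libraries. Both tests were tested on simulated counts for KO against the other libraries, and each recovered most of the genes given a change. Recovery of genes as scarce as many of the members, or with smaller changes than those simulated, was not tested. The simulated recovery therefore does not carry over to all members. DESeq2 also made more false calls than an adjusted p of 0.01 allows, so that its calls are read with caution. Replicate libraries differed by far more than sampling noise (chi-square per degree of freedom 41.8 to 201). The labels name separate animals, and the study describes its replicates as biological.

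Genes were to be named by symbol or, for at most 2, by identifier. Since 26 members had no symbol, further identifiers were singled out after their values were seen. The count table does not pair identifiers with names. Symbols for members and list genes came from gene lists in the supplement of the study, from which no values were taken. These lists hold genes the authors found changed in testis or oocytes, so that the matched list genes are not a random sample of their lists, and Inhba and Mov10l1 were listed there for oocytes of these animals. Sequences and coordinates were not used here.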

Additional observations from a re-analysis of the deposited data

How the results depend on the processing

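The number of genes meeting the rule (29) was 51 with a ratio over 1.2, 8 with a ratio over 2, 3 with a mean of at least 10 CPM and 139 without a minimum, and stayed within 1.5 times under TMM scaling (34), size factors (36) and rounding down (29). Leaving out 1 library gave 43 to 72 genes, of which 21 to 28 were among the 29, as fewer libraries make the ratio easier to pass. In the comparison of KO with the 4 WT and HET libraries (36 genes called by DESeq2, 2 of the 29 among them), edgeR called 4 (0 of the 29), the low-count filter (10 counts in 3 libraries) left 19 (1) and the fit without Cook's filter gave 62 (3). For KO against WT (63 genes, 2 of the 29), edgeR called 1 (0), the low-count filter left 37 (0) and age as a covariate gave 36 (1). For HET against WT (50 genes, 1 of the 29), edgeR called 1 (0) and the low-count filter left 27 (1). Leaving out 1 library gave 19 to 59, 20 to 96 and 34 to 99 genes in that order, and 1 to 4, 0 to 4 and 0 to 1 of the 29. Counts of genes moved by over 1.5 times without HET 3 (59), KO 1 (23) or KO 3 (19) in KO against WT and HET together, without HET 2 (96), KO 1 (20), KO 2 (32) or KO 3 (35) in KO against WT, and without HET 2 (99) in HET against WT. The highest counts of the 29 (4) came without WT 1, HET 2 or HET 3 in the first comparison and without HET 2 or HET 3 in the second, and the lowest without KO 1 or KO 2 (1) and without KO 2 (0). Without WT 2, KO 1 or KO 3 the second had 1, and without WT 1 the third had 0. The cause was not tested. Where a library left out leaves a single WT or HET library, that library is assumed to vary like the other groups. The median coefficient of variation over KO (27.0%) was 19.6 to 26.0% without 1 KO library.

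Replicate numbers are shared between genotypes but name different animals. For the 5 pairs of libraries that share a number, the correlation over genes of what remained after subtracting each genotype mean was between −0.011 and 0.055, so the numbers were not taken as a pairing. A replicate block in the DESeq2 model gave 136 called genes in KO against WT and HET together (6 of the 29), 87 in KO against WT (2) and 57 in HET against WT (1). Of 374 fold changes of the 29 genes in KO against WT and HET together under the alternatives run, 358 stayed on the side of the threshold they had, 13 newly passed it, 3 lost the call and none reversed. Fits that gave a gene no adjusted p were not counted. The rule set every KO library above every control, so that the lack of reversals is no support. Since 2 of the 29 genes were called with the main settings, most that stayed were uncalled in both fits. Depth limits statements on the genes with under 50 counts in a KO library.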
